A study of Mus musculus with 12 samples.

Results

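The integrated stress response and the unfolded protein response were described here through 41 listed genes, chosen by symbol for their place in these pathways. Of the 41, 40 stood among the 15767 genes of the deposited tables and all 40 passed the filter on low counts, which 13014 genes passed in all. Expression of Vldlr was not analysed here. The 40 fell into an ATF4 branch of 17 genes, an endoplasmic reticulum (ER) chaperone branch of 17 genes, and 6 genes for stress sensors and a phosphatase subunit.

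The RNA came from wild-type Neuro-2a, a single mouse neuroblastoma line. Cells were transfected in medium without serum or antibiotics with miR-Control (a control small RNA), with a mimic meant to supply miR-155, or with an inhibitor meant to block it. They were returned to growth medium after 4 h and kept until day 2. The serum-free transfection was thus common to all 3 groups, and no untransfected cells were analysed here. Each group held 4 libraries, which the titles number 1 to 4, so that 3 libraries carry each number. What a number stands for, such as a culture, a day or a plate, is not given in the labels. They also do not say that the libraries came from separate cultures, so the p-values here reflect only how far these libraries differ, and that spread may be technical. The series title asks about miR-155 and mitochondrial damage, and neither table gives the level of miR-155, nor how much reagent entered the cells.

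In the integrated stress response, kinases that sense different stresses phosphorylate the translation factor eIF2. General protein synthesis then falls, while translation of the Atf4 mRNA rises, and the transcription factor ATF4 switches on genes for amino acid supply, redox balance, feedback on the pathway and, through CHOP (Ddit3), cell death. One of these kinases, PERK (Eif2ak3), responds to misfolded protein in the ER and so belongs also to the unfolded protein response, whose other sensors, IRE1 (Ern1) and ATF6, act through XBP1 and cleaved ATF6 on chaperone, folding and degradation genes. Because ATF4 is controlled largely in translation, XBP1 by splicing and ATF6 by cleavage, gene-level RNA values do not measure the activity of these 3 factors.

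The libraries were similar in depth. Total counts ran from 62389350 to 68734250 in the 3 libraries numbered 4 and from 60695388 to 74200532 in the other 9. Genes with at least 1 count numbered 13673 to 13782 and 13669 to 13836, and TMM scaling factors ran from 0.970 to 0.983 and from 0.977 to 1.02 in the same order. The 100 most abundant genes took 17.4% to 18.2% of counts in the libraries numbered 4 and 16.1% to 17.8% in the others. Of 9 neuroblastoma and sympathetic neuron markers, 9 reached a median of 1 TPM (a transcript level scaled to gene length and library size), led by Hand2 at 1815 TPM. Counts per member ran from 1068 for Dnajb9 to 132125 for Asns in any library, so counting error was small beside the spread between libraries.

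Members of the ATF4 branch were abundant in all groups. Atf4 itself had the highest median of the 40 members over the 12 libraries, 2097 TPM, followed by asparagine synthetase (Asns) at 1552 TPM, the glutathione-degrading enzyme Chac1 at 1199 TPM and the pseudokinase Trib3 at 1105 TPM. The median member of the ATF4 branch stood at 457 TPM, and that of the ER branch at 161 TPM. Calreticulin (Calr), a calcium-binding lectin chaperone, was the most abundant ER branch member at 969.7 TPM, and the amino acid sensor Eif2ak4 (GCN2) the least abundant of all at 5.62 TPM. In bulk RNA, more cells with a transcript and more transcript per cell cannot be told apart.

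The 40 genes divided by replicate number. A test of any difference between the 4 numbers, with treatment group in the model, called 24 of the 40 members, where 27.3% of all 13014 genes were called (edgeR quasi-likelihood test, Benjamini-Hochberg adjusted p under 0.05 over all genes). Libraries numbered 4 against those numbered 1 to 3 gave 28 called members, 13 higher and 15 lower, with a background of 41.5% of genes called, 20.4% higher and 21.1% lower. In the ATF4 branch, 10 of 17 were lower in number 4, 0 were higher and 7 did not pass, with a median log2 difference of -0.35. In the ER branch, 11 of 17 were higher, 2 were lower and 4 did not pass, with a median of 0.22. Over all genes tested the median was -7.05e-05. This split was seen in earlier work on these libraries, so the counts describe it and are not separate evidence for it.

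**Figure D1:**
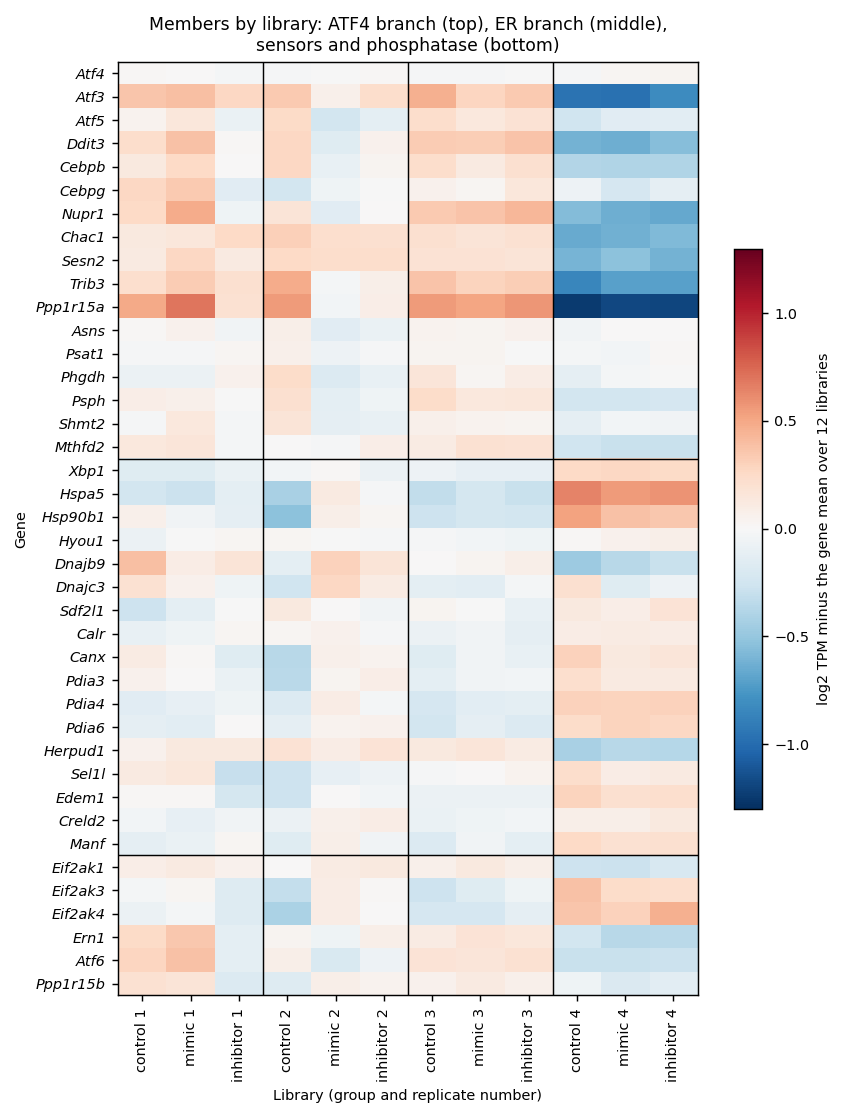
TPM of each of the 40 members in each of the 12 libraries, as log2 relative to the member's mean over the libraries; members are ordered by branch and libraries by replicate number. The 3 libraries numbered 4 are low over most of the ATF4 branch and high over most of the ER branch, in all 3 treatment groups. Among numbers 1 to 3, control 2 and mimic 2 differ from each other over many members.

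The difference was seen in all 3 treatment groups for most called members, though some ER branch calls were lost without control 4 (below). In TPM, 12 members had all 3 libraries numbered 4 above the other 9 and 15 had all 3 below, while 13 overlapped. Of all genes tested, 15.6% lay entirely above and 21.0% entirely below. Within groups, the library numbered 4 lay below the other 3 libraries of its own group in all 3 groups for 15 of 40 members, and above them in all 3 groups for 14 of 40. By the same criterion, 24.1% of all genes tested lay below and 19.0% above.

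Among the transcription factors of the ATF4 branch, 4 of 7 were lower in number 4, and Atf4 was not one of them. Atf4 measured 2088 TPM in control, 2143 in mimic and 2168 in inhibitor among the libraries numbered 4, against a lowest value of 2077, a median of 2096 and a highest of 2128 TPM in the other 9. All 12 libraries thus lay close together, and the log2 difference was 0.04 (95% interval -0.06 to 0.15, adjusted p = 0.510 by edgeR).

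Atf3, a repressor and stress-induced partner of other bZIP factors, measured 42.5, 42.1 and 46.9 TPM in the control, mimic and inhibitor libraries numbered 4, and 86.2 to 114 TPM in the other 9 (median 105). No library numbered 4 came near the others. The means were 43.8 ± 2.66 TPM (SD, n = 3) and 102 ± 7.89 TPM (SD, n = 9), and the log2 difference was -1.20 (SE 0.0772, adjusted p = 1.83e-06 by edgeR).

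Ddit3 encodes CHOP, the factor that links a prolonged response to cell death. It measured 270.2, 266 and 282 TPM in the libraries numbered 4, in the same order of groups, and 372 to 540.5 TPM in the others (median 498). The lowest of those 9 was mimic 2, and the groups did not overlap. The log2 difference was -0.79 (SE 0.0944, adjusted p = 9.10e-05 by edgeR). Ddit3 lies on the strand opposite Mars1, at a median of 279 TPM, and also overlaps on its own strand a gene listed without a symbol at 0.892 TPM. Whether counting used strand is not given in the sources used here, so its value is uncertain. The same holds, for genes on the opposite strand, for Cebpb (Peds1, 87.2 TPM), Atf5 (Nup62, 168 TPM) and Eif2ak1 (Aimp2, 172 TPM). It holds too for Ppp1r15a (Tulp2, 3.84 TPM), Shmt2 (Ndufa4l2, 6.29 TPM) and Pdia3 (Catsper2, 4.05 TPM).

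Nupr1, a small stress-induced chromatin-binding protein, was at 65.5, 62.3 and 61.1 TPM in number 4, and at 87.6 to 135 TPM in the other libraries (median 116). All 3 values lay under the lowest of the 9, and the log2 difference was -0.81 (95% interval -1.03 to -0.60, adjusted p = 8.60e-05 by edgeR). Cebpb, a bZIP factor of inflammatory and stress genes, measured 320.5, 317 and 317 TPM in number 4 and 390.1 to 503.5 TPM otherwise (median 455), with a log2 difference of -0.50 (95% interval -0.68 to -0.32, adjusted p = 0.000696). Atf5, which is translationally controlled like Atf4, and Cebpg, a dimer partner of ATF4, did not pass, at -0.23 (adjusted p = 0.0900) and -0.16 (adjusted p = 0.118).

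The feedback and stress effectors of the ATF4 branch were lower in number 4 in 4 of 4 cases, with a median log2 difference of -0.90. The extreme case was Ppp1r15a (GADD34), the stress-induced subunit that brings a phosphatase to eIF2 and ends the translational block. It measured 142, 148 and 147 TPM in the control, mimic and inhibitor libraries numbered 4, and 328 to 547 TPM in the other 9 (median 482). Every library numbered 4 was below 1/2 of the lowest other library. The means were 146 ± 3.25 TPM (SD, n = 3) and 452 ± 74.9 TPM (SD, n = 9), and the fitted level was 3.03-fold lower in number 4 (log2 -1.60, SE 0.131, adjusted p = 8.55e-06 by edgeR).

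Trib3, a pseudokinase that restrains CHOP and ATF4, was at 528, 582 and 585 TPM in number 4, against 934 to 1332 TPM in the others (median 1164). The log2 difference was -0.99 (95% interval -1.24 to -0.74, adjusted p = 6.62e-05 by edgeR). Chac1, a gamma-glutamyl cyclotransferase that breaks down glutathione, measured 670.4, 686 and 708 TPM in number 4 and 1155.5 to 1309 TPM otherwise (median 1219). The 9 higher libraries were tight for this gene, with a mean of 1218 ± 47.3 TPM (SD, n = 9), and the log2 difference was -0.80 (95% interval -0.95 to -0.66, adjusted p = 7.82e-06 by edgeR). Sesn2, a leucine-binding inhibitor of mTORC1, followed with -0.76 (adjusted p = 2.67e-06) and means of 264 ± 8.12 TPM (SD, n = 3) and 455 ± 16.9 TPM (SD, n = 9).

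**Figure D2:**
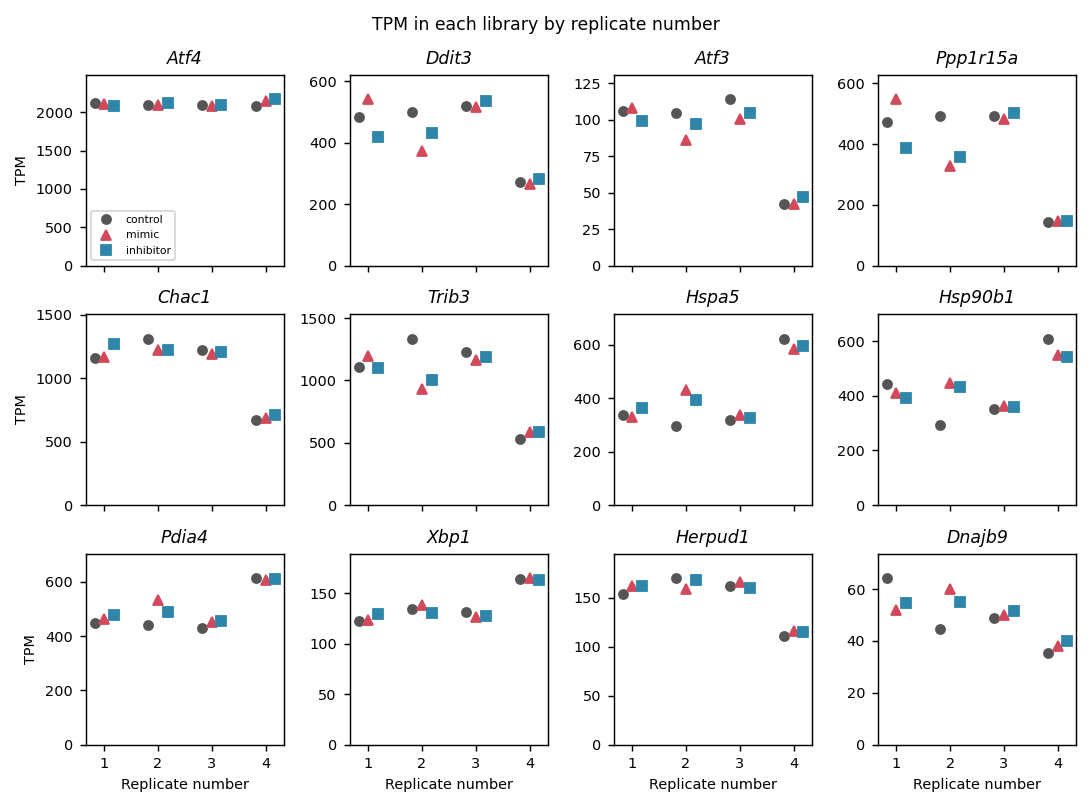
TPM (linear axes from 0) of 12 members in each library against replicate number; circles are control, triangles mimic and squares inhibitor, with no averaging. Atf4 is level, Ddit3, Atf3, Ppp1r15a, Chac1, Trib3, Herpud1 and Dnajb9 are lower at number 4, and Hspa5, Hsp90b1, Pdia4 and Xbp1 are higher.

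The amino acid and one-carbon enzymes, which are textbook ATF4 targets, differed little. Of 6, 2 were lower in number 4 and 4 did not pass, with a median log2 difference of -0.0581. The mitochondrial folate enzyme Mthfd2 was lower by a log2 of -0.35 (556 ± 7.18 TPM, n = 3, against 720.4 ± 42.8 TPM, n = 9, SD, adjusted p = 0.000213 by edgeR). Psph, the last step of serine synthesis, was lower by -0.30 (adjusted p = 0.00634), and without the library control 4 the value was -0.22 with an adjusted p of 0.0571. Psph lies on the strand opposite Cct6a, at 1008 TPM, so its reads are uncertain. Asns had a log2 difference of 0.0036 (95% interval -0.14 to 0.15), the serine aminotransferase Psat1 one of -0.0021 (-0.13 to 0.13), the first serine enzyme Phgdh -0.05 (-0.26 to 0.16) and the serine hydroxymethyltransferase Shmt2 -0.07 (-0.25 to 0.10). For these 4, a difference of the size seen in the effectors lies outside the interval.

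The ER branch showed the opposite direction over most of its members. Hspa5 encodes BiP, the abundant Hsp70 of the ER lumen that binds unfolded protein and holds the sensors inactive. It measured 622, 585 and 594 TPM in the control, mimic and inhibitor libraries numbered 4, and 297 to 432 TPM in the other 9 (median 337). The lowest library numbered 4 stood above the highest other library, mimic 2. The means were 600.2 ± 19.3 TPM (SD, n = 3) and 348 ± 41.6 TPM (SD, n = 9), and the log2 difference was 0.81 (95% interval 0.65 to 0.97, adjusted p = 1.36e-05 by edgeR).

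Hsp90b1 (GRP94), the ER form of Hsp90, was at 608, 551 and 542 TPM in number 4 and at 294 to 448 TPM otherwise (median 392), a log2 difference of 0.57 (adjusted p = 0.000347). Of the 8 lumenal and membrane chaperones, Hspa5, Hsp90b1 and calnexin (Canx, 0.28, adjusted p = 0.00923) were higher and Dnajb9 was lower. The other 4 did not pass by edgeR. Calr was at 0.15 (adjusted p = 0.0539) and Sdf2l1 at 0.19 (adjusted p = 0.0893). The nucleotide exchange factor Hyou1 was at 0.0854 (adjusted p = 0.241) and the Hsp40 Dnajc3 at 0.0148 (adjusted p = 0.918).

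The protein disulphide isomerases, which form and rearrange disulphide bonds, were higher in 3 of 3 cases. Pdia4 measured 613, 606 and 612 TPM in number 4 and 429 to 534 TPM in the other libraries (median 456), with a log2 difference of 0.41 (adjusted p = 5.54e-05 by edgeR). Pdia6 was at 195, 202 and 199 TPM in number 4 and at 141 to 172 TPM otherwise (median 152.5), with 0.37 (adjusted p = 0.000196). Pdia3 had a smaller difference of 0.22 (adjusted p = 0.0124).

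Xbp1, the transcription factor that IRE1 activates by splicing, measured 164, 165 and 163 TPM in number 4 and 123 to 138 TPM in the others (median 129). The groups did not overlap, with a log2 difference of 0.37 (adjusted p = 0.000255 by edgeR), and the spliced and unspliced forms are not separated in these values. The mannosidase-like degradation factor Edem1 was higher by 0.34 (adjusted p = 0.000299), the secreted factor Manf by 0.32 (adjusted p = 0.00130) and the ER degradation adaptor Sel1l by 0.21 (adjusted p = 0.0246). Manf overlaps Rbm15b on the same strand (65.2 TPM) and Dcaf1 on the opposite strand (31.5 TPM), so its value is uncertain. Creld2, a secreted isomerase-like protein, had 334, 335 and 345 TPM in number 4 and 295 to 340.5 TPM otherwise (median 308), which overlap. Its difference of 0.14 (adjusted p = 0.0367) lost its call under 12 of 19 other settings.

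Herpud1 and Dnajb9 went against their branch. Herpud1, a membrane protein that organises ER-associated degradation, measured 111, 116 and 115 TPM in number 4 and 154 to 169.6 TPM in the other 9 (median 162). Its log2 difference was -0.49 (95% interval -0.62 to -0.37, adjusted p = 7.54e-05 by edgeR). Dnajb9 (ERdj4), an Hsp40 that recruits BiP to IRE1, measured 35.2, 38.0 and 39.8 TPM in number 4, against a median of 52.1 and a highest value of 64.1 TPM otherwise. Its lowest other library, control 2, was still higher than all 3, and the log2 difference was -0.48 (adjusted p = 0.00164 by edgeR).

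Calls over all genes fell when any 1 library numbered 4 was left out. From 5399 they fell to 3690 without control 4, 3757 without inhibitor 4 and 4337 without mimic 4. Leaving out 1 of the other libraries gave 4707 (mimic 3) to 6589 (control 2), so falls were not limited to number 4. Without control 4, the mimic and inhibitor libraries alone represented number 4, and 7 of 17 ER branch members were called higher. By edgeR, Canx (0.20, adjusted p = 0.101), Pdia3 (0.16, 0.127), Sel1l (0.19, 0.136) and Creld2 (0.15, 0.102) no longer passed in that fit. Hspa5 (0.74), Hsp90b1 (0.49), Pdia4 (0.39), Xbp1 (0.38), Pdia6 (0.37), Edem1 (0.32) and Manf (0.28) still did.

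**Figure D3:**
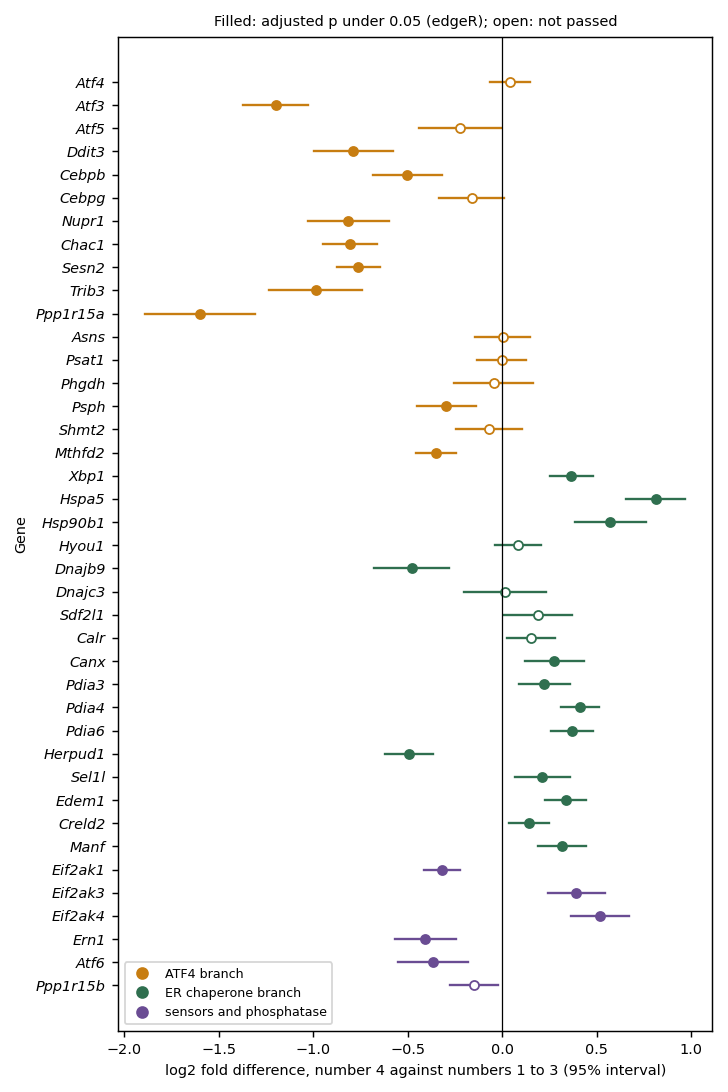
Log2 fold difference (x axis) of each of the 40 members in libraries numbered 4 (n = 3) against numbers 1 to 3 (n = 9), with 95% intervals from edgeR; filled points passed an adjusted p of 0.05 and open points did not. The ATF4 branch runs from -1.60 for Ppp1r15a to 0.04 for Atf4, and the ER branch from -0.49 for Herpud1 to 0.81 for Hspa5.

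Promoter sequence was looked at beside these differences, since ATF4 on one side and XBP1 and ATF6 on the other are known to bind different elements. RefSeq promoters of GRCm38.p6, 250 bases before to 50 after the start, matched 37 of the 41 listed genes; Atf6, Hyou1, Manf and Ppp1r15b had no entry. The ER stress response element (ERSE: CCAAT, 9 bases, CCACG, on either strand) occurred in 7 of 15 matched ER branch genes, in 0 of 18 ATF4 branch genes and in 0.137% of the 27025 genes in the table. The 8 matches are shown because they occurred in 1 branch alone, with the CCAAT and CCACG parts in capitals, read on the strand of the match:

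Hspa5: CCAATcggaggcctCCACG
Hsp90b1, first match: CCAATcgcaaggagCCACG
Hsp90b1, second match: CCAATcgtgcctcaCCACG
Dnajc3: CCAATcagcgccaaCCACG
Calr: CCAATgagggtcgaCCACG
Canx: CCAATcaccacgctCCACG
Pdia6: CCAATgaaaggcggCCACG
Creld2: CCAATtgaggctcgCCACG

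Of these 7 genes, 5 were called higher in number 4 (Hspa5, Hsp90b1, Canx, Pdia6 and Creld2), and Calr and Dnajc3 did not pass. Pdia4, Xbp1, Edem1, Pdia3 and Sel1l were called higher without a match in this window. Also without a match, Herpud1 and Dnajb9 were called lower and Sdf2l1 did not pass. Of all genes tested, 20.4% were called higher. Higher calls thus came both with and without the element. A match describes letters only and shows no binding. The members were chosen for their place in these pathways, so the shares with an element, beside those of all genes, carry no test.

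The C/EBP-ATF composite element TGATGNAA, searched on both strands, occurred in 6 of 18 matched ATF4 branch genes (Atf3, Nupr1, Chac1, Trib3, Asns and Vldlr) and in 4.51% of all genes. Of these, Atf3, Nupr1, Chac1 and Trib3 were called lower in number 4, and Asns did not pass (log2 difference 0.0036). Ppp1r15a, Ddit3, Sesn2, Cebpb, Psph and Mthfd2 were called lower without a match in this window. Atf4, Atf5, Cebpg, Psat1, Phgdh and Shmt2 had no match and did not pass. Of all genes tested, 21.1% were called lower. In the ER branch the composite element occurred in Herpud1 alone, 1 of 15. Herpud1 also had the only member match to ERSE-II (ATTGG, 1 base, CCACG), found in 0.0444% of genes. TGACGTGG occurred in no member (0.714% of all genes), TGACGTCA in Ppp1r15a alone (2.03%), and the short CCACG, which every ERSE and ERSE-II match contains, in 13 of 18 ATF4 branch genes and 13 of 15 ER branch genes (35.5%).

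The whole windows of 4 genes are given to show these elements in place. They are a chaperone that was higher, a lower ER branch gene with the composite element and ERSE-II, and a lower factor and a lower effector of the ATF4 branch. They are written 5′ to 3′ on the strand of the gene, with matches in capitals; TTGCATCA is the reverse complement of TGATGCAA. Hspa5 lies at chr2:34771840-34772139 on the plus strand, Herpud1 at chr8:94386179-94386478 on the plus strand, Atf3 at chr1:191183284-191183583 on the minus strand and Chac1 at chr2:119350992-119351291 on the plus strand.

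Hspa5: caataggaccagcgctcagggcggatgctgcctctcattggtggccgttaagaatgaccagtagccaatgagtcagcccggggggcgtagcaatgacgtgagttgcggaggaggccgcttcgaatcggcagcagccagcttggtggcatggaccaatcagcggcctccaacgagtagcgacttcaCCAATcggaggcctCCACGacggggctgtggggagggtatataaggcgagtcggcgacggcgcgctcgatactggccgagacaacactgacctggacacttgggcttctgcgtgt
Herpud1: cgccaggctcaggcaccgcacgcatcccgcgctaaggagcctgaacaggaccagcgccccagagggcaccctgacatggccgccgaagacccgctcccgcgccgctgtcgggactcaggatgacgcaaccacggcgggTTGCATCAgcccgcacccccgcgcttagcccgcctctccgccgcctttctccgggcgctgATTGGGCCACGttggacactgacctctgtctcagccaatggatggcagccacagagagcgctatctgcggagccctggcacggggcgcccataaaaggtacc
Atf3: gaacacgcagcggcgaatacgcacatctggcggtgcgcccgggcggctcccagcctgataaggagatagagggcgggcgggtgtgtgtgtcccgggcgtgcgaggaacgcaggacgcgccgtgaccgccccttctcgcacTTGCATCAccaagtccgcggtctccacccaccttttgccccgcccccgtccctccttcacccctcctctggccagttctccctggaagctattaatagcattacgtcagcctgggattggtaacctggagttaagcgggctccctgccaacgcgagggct
Chac1: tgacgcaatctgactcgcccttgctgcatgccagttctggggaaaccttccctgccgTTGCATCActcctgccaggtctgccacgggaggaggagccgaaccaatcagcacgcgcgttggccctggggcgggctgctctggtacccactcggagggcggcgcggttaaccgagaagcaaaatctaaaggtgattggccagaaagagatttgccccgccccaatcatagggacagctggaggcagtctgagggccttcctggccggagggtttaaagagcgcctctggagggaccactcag

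In Hspa5 the capitals are the ERSE at positions -65 to -47 from the start. In Herpud1 they are the composite element at -112 to -105 and ERSE-II at -52 to -42. Herpud1 was the only member with ERSE-II and had no ERSE match. Dnajb9, the other lower ER branch gene, had no match to ERSE, ERSE-II or the composite element. In Atf3 and Chac1 the capitals are the composite element, at -110 to -103 and -193 to -186.

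The sensors did not move together. PERK (Eif2ak3) measured 34.6, 31.3 and 30.9 TPM in the control, mimic and inhibitor libraries numbered 4, and 21.4 to 28.4 TPM in the other 9 (median 25.5). Its log2 difference was 0.39 (adjusted p = 0.000939 by edgeR). GCN2 (Eif2ak4), which senses uncharged tRNA, was at 7.47, 7.17 and 8.02 TPM in number 4 and at 4.38 to 6.21 TPM otherwise (median 5.37), with 0.52 (adjusted p = 0.000198). For both kinases, each library numbered 4 lay above all 9 others.

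IRE1 (Ern1) measured 33.9, 31.4 and 31.4 TPM in number 4 against 36.9 to 51.1 TPM (median 43.1), a log2 difference of -0.41 (adjusted p = 0.00117 by edgeR). Atf6, the sensor that is itself cut into a transcription factor, measured 111, 110.6 and 111 TPM in number 4 against 118 to 177 TPM (median 151), with -0.37 (adjusted p = 0.00535). The haem-regulated kinase Eif2ak1 (HRI) was also lower, at 89.6 ± 2.30 TPM (SD, n = 3) against 113 ± 3.15 TPM (SD, n = 9), with -0.32 (adjusted p = 0.000179). Ppp1r15b, the constitutive counterpart of GADD34, did not pass (-0.15, adjusted p = 0.0551).

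The branches were also summarised per library, as the mean over a branch of log2 TPM relative to each gene's own mean. The ATF4 branch stood at -0.41 to -0.37 in the 3 libraries numbered 4 and at -0.0529 to 0.22 in the other 9. The ER branch stood at 0.12 to 0.17 and at -0.16 to 0.0722. ER minus ATF4 was 0.50 to 0.58 in number 4 and -0.36 to 0.13 in the others, which did not overlap. Both sets of libraries were known to differ in these genes when the summary was made, so it carries no test.

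**Figure D4:**
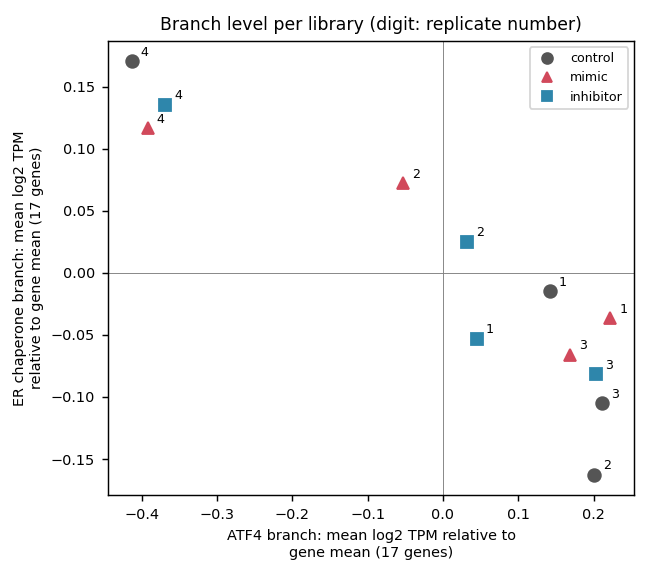
Mean relative log2 TPM of the 17 ER branch genes (y axis) against that of the 17 ATF4 branch genes (x axis), 1 point per library, with colour for group and the replicate number written beside it. The 3 libraries numbered 4 lie apart at upper left, and among the other 9 mimic 2 lies nearest to them.

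Single pairs of genes also separated number 4 in TPM. Apart from Atf4, each gene in these pairs already had its libraries numbered 4 wholly above or below the other 9. The ratios therefore restate that difference and carry no test. The ratio of Ddit3 to Hspa5 was 0.435 to 0.475 in number 4 and 0.862 to 1.68 in the other libraries. Ppp1r15a over Atf4 was 0.0678 to 0.0691 in number 4 and 0.156 to 0.259 otherwise. Hspa5 over Herpud1, both in the ER branch, was 5.05 to 5.61 in number 4 and 1.75 to 2.72 otherwise. In each of these 3 ratios, mimic 2 was the library among the 9 closest to number 4.

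Other values moved with number 4, and their part in these differences was not tested. The summed level of the 9 neuroblastoma markers was 4357 to 4561 TPM in number 4 and 4662 to 5005 TPM in the others. Of 6 immune and endothelial markers, 4 were in the file and 1 (Pecam1) reached a median of 1 TPM; their sum was 2.77 to 3.04 TPM against 1.74 to 2.73 TPM, and Ptprc and Cdh5 had a median of 0. For 5 of 6 glial markers the sum was 4.75 to 5.18 TPM against 3.42 to 5.02 TPM, nearly all Mbp, with Sox10 and S100b at a median of 0. For 4 of 6 fibroblast markers it was 1.07 to 1.73 TPM against 0.807 to 1.27 TPM, with Col1a2 at a median of 0. The sums for these 3 other cell types lay far below the level of most members.

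Among the 9 libraries numbered 1 to 3 the members also varied, without a call. Number 3 against numbers 1 and 2 called 0 of 40 members and 0 of all genes (0%), and number 2 against number 1 likewise 0 and 0 (0%). At an unadjusted p under 0.05, edgeR gave 4 and 1 members and 282 and 283 of all genes in these tests; DESeq2 called 0 members in both, and 141 and 211 of all genes. The first of them turned on control 2. Without that library, number 3 against numbers 1 and 2 called 8 members and 569 genes: Atf5, Ddit3, Nupr1, Phgdh, Ppp1r15a, Psph and Trib3 were higher in number 3 by 0.21 to 0.33 on the log2 scale, and Hsp90b1 was lower by -0.24.

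Of the 17 ATF4 branch members, 12 had their lowest value of the 9 libraries in mimic 2 and 8 their highest in control 2. Of the 17 ER branch members, 7 had their highest value in mimic 2 and 7 their lowest in control 2. Ppp1r15a, for example, was at 494 TPM in control 2, 328 in mimic 2 and 358 in inhibitor 2, and Hspa5 at 297, 432 and 393 TPM in the same order. Control 2 thus stood apart from the other libraries numbered 2 in these genes, while mimic 2 and inhibitor 2 lay close to each other.

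The miR-155 comparisons called no member. With mimic set against control, inhibitor set against control, and the reagents set against each other, edgeR called 0 of 40 members and 0 of 13014 genes (0%), and 0 members had an unadjusted p under 0.05, against 71, 67 and 77 of all genes. DESeq2 called 0 members and 3, 1 and 6 genes, and limma on log2(TPM + 1) called 0 members and 0 genes. The mimic and inhibitor comparisons share the 4 control libraries. No member had groups that did not overlap, while 0.638%, 0.676% and 0.914% of all genes did.

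The intervals set what these comparisons could show. All 40 intervals included 0 in each comparison, with a median 95% half-width of 0.27 on the log2 scale. Half-widths ran from 0.11 for the most even member to 1.02 for the most variable in mimic against control. The fits pool numbers 1 to 4 within a group, so that the spread by number stands in the error and widens the intervals. Without the libraries numbered 4, the median half-width was 0.18, 0 members were called, and 3, 0 and 0 members had an unadjusted p under 0.05, against 379, 189 and 163 of 13052 genes. With all 12 libraries and replicate number as a term, the median half-width was 0.16 in each comparison. In that fit edgeR gave 0 members an unadjusted p under 0.05, against 191, 161 and 139 of 13014 genes.

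Atf4 measured 2127, 2091.5, 2094 and 2088 TPM in control 1 to 4. It measured 2111, 2098, 2085 and 2143 TPM in mimic, and 2077, 2128, 2096 and 2168 TPM in inhibitor. The 3 groups overlapped fully, and the log2 differences from control were -0.0217 (95% interval -0.13 to 0.08) for mimic and 0.0124 (-0.09 to 0.12) for inhibitor.

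Across the branch, mimic minus control was below 0 for 16 of 17 ATF4 branch members (median -0.07, from -0.17 for Atf3 upwards), while 6951 of the 13014 genes tested were below 0 (median -0.0068). The ER branch had 10 of 17 above 0 (median 0.0192). Inhibitor minus control was below 0 for 15 of 17 ATF4 branch members (median -0.0635) and above 0 for 12 of 17 ER branch members (median 0.0182), while 7286 of all genes were below 0 (median -0.0099). Without all 3 libraries numbered 4, 16 of 17 ATF4 branch members were below 0 in mimic (median -0.12) and 17 of 17 in inhibitor (median -0.11). The directions turned on single libraries. Without control 2, 9 of 17 ATF4 branch members were below 0 in mimic (median -0.0116) and 7 of 17 in inhibitor (median 0.0158). Without mimic 4, 8 of 17 were below 0 in mimic (median 0.0142), and without inhibitor 4, 9 of 17 in inhibitor (median -0.0029). These last fits keep control 4 with no library numbered 4 in the other group.

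The smallest unadjusted p values among members belonged to serine synthesis genes and Creld2. Phgdh measured 891, 1107, 1046 and 864 TPM in control 1 to 4 and 893, 832, 954 and 923 TPM in mimic 1 to 4. In inhibitor it measured 974, 877, 1004 and 939 TPM. The groups overlapped, and mimic minus control was -0.15 (95% interval -0.37 to 0.07, unadjusted p = 0.168 and adjusted p = 1.00 by edgeR), and mimic minus inhibitor -0.10 (-0.33 to 0.12, adjusted p = 1.00).

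Psph measured 158, 171, 175 and 125 TPM in control, 156, 136, 163 and 125 in mimic, and 148, 143, 164 and 127 in inhibitor. In each group the library numbered 4 was the lowest. The log2 differences from control were -0.15 for mimic and -0.12 for inhibitor, both with an adjusted p of 1.00 by edgeR. Creld2 measured 309, 302, 298 and 334 TPM in control and 308, 340.5, 309 and 345 TPM in inhibitor, a log2 difference of 0.0680 (adjusted p = 1.00). Psat1 was at 857, 826, 887 and 843 TPM in mimic and at 883, 857, 859.9 and 875 TPM in inhibitor, a log2 difference of -0.0553 (adjusted p = 1.00).

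**Figure D5:**
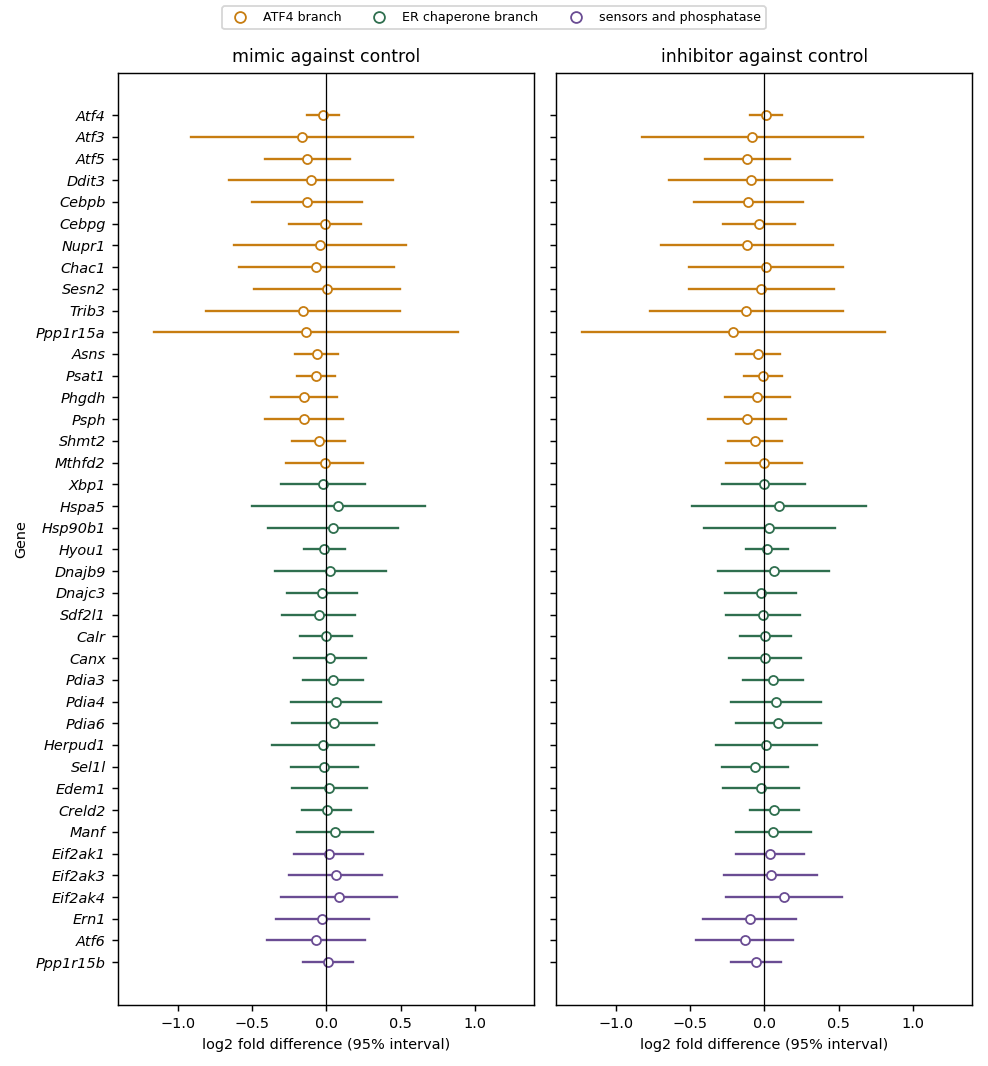
Log2 fold difference (x axis) of each of the 40 members in mimic against control (left) and inhibitor against control (right), n = 4 libraries per group, with 95% intervals from edgeR. All intervals cross 0, and the widest belong to Ppp1r15a and Atf3. The panels share the control libraries.

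Cebpb was given in full because it is a reported miR-155 target. The seed of the microRNA, bases 2 to 8, pairs with complementary sites in 3′ UTRs. The mature mouse sequence (RefSeq, GRCm38.p6, chr16:84714143-84714165, plus strand) is shown with its seed in capitals, next to the site in the Cebpb 3′ UTR in GRCm38, chr2:167690366-167690373, plus strand, with the match in capitals; the labels do not give the sequence of the reagents:

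mmu-miR-155-5p: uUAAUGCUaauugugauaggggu
Cebpb site: ccgtttcgAGCATTAAagtgaaga

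This 8mer begins at base 454 of the 506 bases of the longest annotated 3′ UTR. Cebpb measured 455, 503.5, 488 and 320.5 TPM in control, 499, 390.1, 452 and 317 in mimic, and 418, 427, 483 and 317 in inhibitor. The groups overlapped, and the log2 differences from control were -0.13 for mimic (95% interval -0.50 to 0.24) and -0.11 for inhibitor (-0.48 to 0.26), each with an adjusted p of 1.00 by edgeR. In all, 7 of the 40 members had a seed match of 7 or 8 bases: Cebpb, Dnajc3, Sel1l, Eif2ak1, Ern1, Atf6 and Ppp1r15b. Among 15497 genes with a 3′ UTR, 13.4% had one.

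Genes of the same pathways outside the members were also counted for number 4, where 20.4% of all genes were higher and 21.1% lower. Of 36 other ATF4-linked genes tested, 15 were lower, 2 higher and 19 did not pass (median log2 difference -0.18). The secreted glycoprotein Stc2 (29.2 ± 0.629 TPM, n = 3, against 51.5 ± 4.68 TPM, n = 9, SD) was lower by -0.80 (adjusted p = 2.66e-05), the AP-1 repressor Jdp2 by -0.61 and the glycine transporter Slc6a9 by -0.60. Ddit4 (REDD1), an inhibitor of mTORC1 that stress and low oxygen induce, was higher by 0.68 (2013 ± 119 against 1270.2 ± 39.6 TPM, adjusted p = 1.46e-05 by edgeR).

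Of 38 other ER folding, translocation and degradation genes, 13 were higher, 4 lower and 21 did not pass (median 0.12). Ero1a, the oxidase that recharges disulphide isomerases, was higher by 1.91 (351 ± 28.3 TPM, n = 3, against 95.5 ± 13.6 TPM, n = 9, SD, adjusted p = 2.20e-08 by edgeR). The ER-anchored factor Creb3l2 (0.80), the Hsp70 family member Hspa13 (0.47) and the prolyl isomerase Fkbp14 (0.46) were higher too. Of 14 other eIF2 genes, 3 were higher, 4 lower and 7 did not pass (median -0.0389), shares near those of all genes. The 4 lower were Impact, an inhibitor of GCN2 (-0.70), the eIF2B subunits Eif2b1 (-0.54) and Eif2b2 (-0.44), and Dele1 (-0.41), which relays mitochondrial stress to HRI.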

How the data were processed

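RNA was sequenced in 12 Neuro-2a libraries, 4 per treatment. For 15767 genes the authors deposited raw read counts and, separately, TPM values. GRCm39 is the build in the submitters' processing notes, which list the tools as edgeR, StringTie, featureCounts, STAR and fastp; settings, annotation and strand handling are not stated there. Levels are the deposited TPM. The tests used edgeR 4.0.16 with R 4.3.3 on counts (TMM scaling, filterByExpr, quasi-likelihood) on all genes, with Benjamini-Hochberg adjustment. Treatment contrasts used group alone; contrasts of replicate numbers used number and group. DESeq2 1.42.0, limma 3.58.1 on log2(TPM + 1), other scalings and filters, and leaving out libraries were alternatives. The steps were tested on simulated data. Sequences came from RefSeq and GENCODE tables of GRCm38, another build than the authors'. Genes named in full were the pathway regulators and Cebpb, the 6 largest differences of number 4 per branch and the 2 smallest p per treatment contrast; other pathway lists named at most 4. Members and lists were chosen with earlier results of these data known. One marker gene of the lists is not reported here.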

Additional observations from a re-analysis of the deposited data

Results flagged for a closer look

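For the 23 members given in full, each treatment group of 4 libraries was examined for 1 library far from the other 3 (gap to the nearest library divided by the whole range, above the 95% Dixon value for 4 libraries). Of 69 groups of values, 12 were flagged, 11 of them for a library numbered 4. Chance flags about 1 group in 20, but most of these members were chosen for their difference in number 4, so the flags describe that choice and do not test it. In control, library 4 stood apart for Ddit3 at 270.2 TPM, Ppp1r15a at 142 TPM and Atf3 at 42.5 TPM, all low, and for Hspa5 at 622 TPM and Pdia4 at 613 TPM, both high. In mimic, library 4 was low for Chac1 at 686 TPM and Herpud1 at 116 TPM. In inhibitor, library 4 was low for Atf3 at 46.9 TPM, Chac1 at 708 TPM and Herpud1 at 115 TPM, and high for Xbp1 at 163 TPM. The other flag was Atf4 in control 1, at 2127 TPM against 2088 to 2094 TPM in the rest of its group.

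For 2 members, library 4 lay on opposite sides of its own group in different treatments. For Atf4 the log2 difference of library 4 from the mean of libraries 1 to 3 was -0.0109 in control, 0.0306 in mimic and 0.0462 in inhibitor. For Dnajc3 it was 0.27 in control, -0.22 in mimic and -0.0688 in inhibitor. With 1 library numbered 4 per group, the difference between groups was not tested.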

How the results depend on the processing

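Of the counts of called members under alternatives, 177 stayed within 1.5 times the count reported and 2 did not. The 177 include counts of 0 set against a reported 0, for which this limit says little about stability. The count of called members in number 4 against numbers 1 to 3 was 23 to 33 when 1 library was left out and 27 to 30 under other scalings, filters and tools (28 reported). ATF4 branch members lower numbered 9 to 12 without 1 library, and ER branch members higher 7 (without control replicate 4) to 13, or 8 to 12 under other settings. Number 3 against numbers 1 and 2 called 0 to 8 members without 1 library, 8 being without control replicate 2. All alternatives of the 3 treatment contrasts called 0 members.

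The sign of 3 members close to 0 in number 4 turned. Atf4 gave -0.0034 with total counts. Phgdh ran from -0.1341 to 0.0521 without 1 library, above 0 without control 2 (0.0114) and control 4. Psat1 gave 0.0031 with DESeq2 size factors and 0.0028 with DESeq2, and ran from -0.0295 to 0.0330 without 1 library, above 0 without control 2, control 4, mimic 3 and inhibitor 1. The cause was not tested.

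With the replicate block (replicate number as a term), 0 members and 0 genes were called in each treatment contrast, also without the libraries numbered 4, an alternative chosen after seeing the data. Deviations of same-numbered libraries correlated at -0.0709 to 0.53, over 0.1 in 7 of 12 pairs. The 3 pairs of libraries numbered 4 correlated at 0.44 to 0.53. Since not every pair was over 0.1, the numbers were not taken to pair the libraries. The difference shared by the libraries numbered 4 therefore stayed in the error of the main treatment fits.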
